A study of Mus musculus with 2 samples.

Results

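Collagen genes were examined in Sox1-GFP+ cells of the mouse tail and brain, cell by cell. A gene was taken when its symbol is Col, a number, the letter a and a second number, and 43 of the 19608 genes in the 2 files met this. Of these, 41 were found in the tail file, 39 in the brain file and 37 in both. Over the cells kept, 31 had at least 50 molecules in both libraries together and are named below with their values.

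Both groups came from Sox1-GFP knock-in mice, in which green fluorescent protein is made where the neuroepithelial gene Sox1 is active. The tail cells came from postnatal and the brain cells from adult animals per the study's methods, after trypsin dissociation of the whole tissue and sorting on the reporter. Each group was 1 library, captured with the BD Rhapsody system and carrying molecular identifiers, and how many animals were pooled is not given in the sources used here. Tissue, age and library differed together and cannot be told apart, and no genotype or treatment differed between the groups. There were no replicates, so no test was run, and every 95% interval below covers counting error only.

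Collagens are secreted or membrane-bound proteins of 3 chains wound into a helix, in which glycine recurs at a fixed step. Fibrillar collagens form the rope-like fibrils of dermis, bone, tendon and cartilage, while type IV collagens form the sheet of every basement membrane. The remaining types decorate fibrils, build finer networks or anchor epithelia. In the central nervous system, fibrillar collagen is known mainly from the meninges and vessel walls.

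The repeat that defines the family can be read in the coding sequence, where glycine is any codon that starts with GG. The 4 stretches below were chosen because the results turn on these genes: a fibrillar chain, a basement membrane chain, the epithelial membrane-spanning chain and a network chain. Each shows 20 codons of the coding strand, 5′ to 3′, with in-frame glycine codons in capitals. They were read from GRCm38 with the GENCODE vM21 gene models, joined across exons, so that the positions span the introns between them.
Col1a1: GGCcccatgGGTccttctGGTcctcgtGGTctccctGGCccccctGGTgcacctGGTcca
Col4a1: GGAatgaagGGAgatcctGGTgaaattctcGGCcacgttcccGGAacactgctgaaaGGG
Col17a1: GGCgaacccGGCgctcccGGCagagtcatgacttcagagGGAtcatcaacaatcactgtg
Col8a2: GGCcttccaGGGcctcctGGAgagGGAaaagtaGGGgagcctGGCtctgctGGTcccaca

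The Col1a1 stretch covers codons 168 to 187 in exons 6 to 8 of 51, at chr11:94939451-94939909 on the plus strand, and keeps a glycine at the head of each triplet of codons. It opens a run of 338 such triplets. The Col4a1 stretch, codons 154 to 173 in exons 8 and 9 of 52 at chr8:11244519-11245066 on the minus strand, has breaks in the repeat, and the longest unbroken run of that gene was 40 triplets. The Col17a1 stretch lies at chr19:47657143-47659225 on the minus strand, codons 807 to 826 in exons 33 to 35 of 54, and runs out of the repeat. Its longest run was 55 triplets. The Col8a2 stretch, codons 483 to 502 in exon 4 of 4 at chr4:126311645-126311704 on the plus strand, holds a break where a residue is missing from a triplet, and the longest run was 59.

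The tail library had 1964 kept cells with a median of 1282.5 molecules, and the brain library had 7988 with a median of 696. Kept cells carried 2817103 and 6424466 molecules, of which 1.28% and 0.0469% were collagen. Reads per molecule were alike in the libraries, at 1.25 and 1.24. A level below is CPM, a gene's molecules with all molecules of the cells named scaled to a total of 1000000, and 18 kept cells carried a barcode index found in both libraries.

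Collagen was carried mainly by a small set of tail cells. In the tail library, 172 cells (8.76%, exact Clopper-Pearson interval 7.54 to 10.1%) held 10 or more molecules of Col1a1, Col1a2 and Col3a1 together, and these are called fibrillar-high. These genes encode the chains of type I and type III collagen, the main fibrils of skin and connective tissue. In the brain library 2 cells did so (0.0250%, interval 0.00303 to 0.0904%). The step was wide, since the tail cells just outside the limit held 9, 7 and 7 molecules and those just inside held 13, 13 and 14. Inside it the median was 93.5 and the highest 833, while 1665 tail cells had none of the 3 genes and 106 had a single molecule. In the brain, 7304 cells had none and 601 had 1 molecule, the highest values under the limit were 4, 3 and 3, and the 2 cells above it held 19 and 124.

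**Figure D1:**
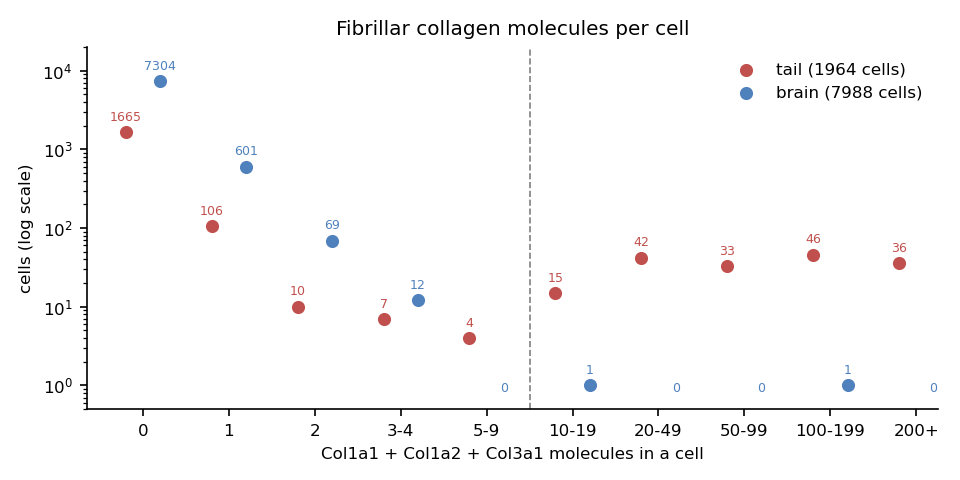
Kept cells (vertical axis, number of cells, log scale) by their Col1a1, Col1a2 and Col3a1 molecules together (horizontal axis), for the tail and brain libraries. The dashed line marks 10 molecules, above which 172 tail cells and 2 brain cells lie.

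The labelled sort was on a Sox1 reporter, and Sox1 itself was seen in 1 of the 172 fibrillar-high tail cells, a share of 0.581%. In the other tail kinds described below it was seen in 7.07% of Igfbp5, 10.1% of Slc1a3, 10.8% of Tmem212, 14.0% of unmarked and 47.0% of Stmn2 cells, and in 0 of 81 Krt5 cells. Fibroblast genes summed to 6178 CPM in the fibrillar-high tail cells with all 8 listed genes present. Schwann genes summed to 816 CPM there and mural genes to 417. The part of carried-over or co-captured cells in these values was not tested. Scrublet called 2 of the 172 as doublets. The 2 brain cells together had 4277 CPM of fibroblast genes and 7414 CPM of astroglial genes. These sums do not show which cell held which.

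Summed over the family, collagen reached 12766 CPM in tail cells against 469.3 CPM in brain cells, 27.2 times as much (95% interval 26.2 to 28.2). Without the fibrillar-high cells the levels were 1445 and 442.3 CPM and the ratio 3.27 (3.11 to 3.43). The fibrillar class went from a ratio of 38.7 (36.9 to 40.7) to 2.30 (2.14 to 2.47). The basement membrane class moved little, from 10.5 (9.34 to 11.9) to 9.20 (8.11 to 10.4). All other collagens together went from 11.8 (11.0 to 12.6) to 2.87 (2.62 to 3.14). Of the tail's fibrillar collagen molecules, 28180 of 29556 lay in fibrillar-high cells, against 384 of 1497 type IV molecules. The fibrillar class includes Col1a1, Col1a2 and Col3a1, which chose these cells. Its fall, that of the sum and this share are thus set in part by that choice. Outside the fibrillar-high cells these 3 genes made 51, 63 and 62 of 1376 tail and 416, 358 and 2 of 1586 brain fibrillar molecules.

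A gene was called when it had 50 or more molecules over both libraries and its whole interval lay beyond 4-fold. Of the 31 collagens with that many molecules, 24 were called higher in the tail, where 6.35% of the 11347 genes tested were, and 0 were called higher in the brain, where 4.66% of genes were. Of the 24, Col1a1, Col1a2, Col2a1, Col4a1, Col4a2, Col5a2, Col8a2 and Col27a1 alone had 50 or more brain molecules. The others met the minimum only with their tail molecules, and the share of all genes was taken by the same rule. With libraries scaled by TMM or median-ratio factors in place of totals, Col9a3 was called in the brain and Col27a1 and Col7a1 lost their tail calls. With cells limited to under 20% mitochondrial molecules, Col27a1 and Col6a5 lost theirs. The median log2 ratio of tail over brain was 4.36 for the collagens and 0.28 for all genes tested. Without the fibrillar-high cells 23 collagens could be tested. Then 12 were called in the tail, against 5.71% of genes, and 2 in the brain, against 4.58% of genes. The median log2 ratio of these 23 was 2.34, and that of all genes tested was 0.29. Col1a1, Col1a2 and Col3a1 are among the 23, and Col3a1 is among the 12. These genes chose the cells left out, so their part in the count and the median is no result. Of the 12, Col2a1, Col4a1, Col4a2, Col5a2 and Col27a1 alone had 50 or more brain molecules.

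**Figure D2:**
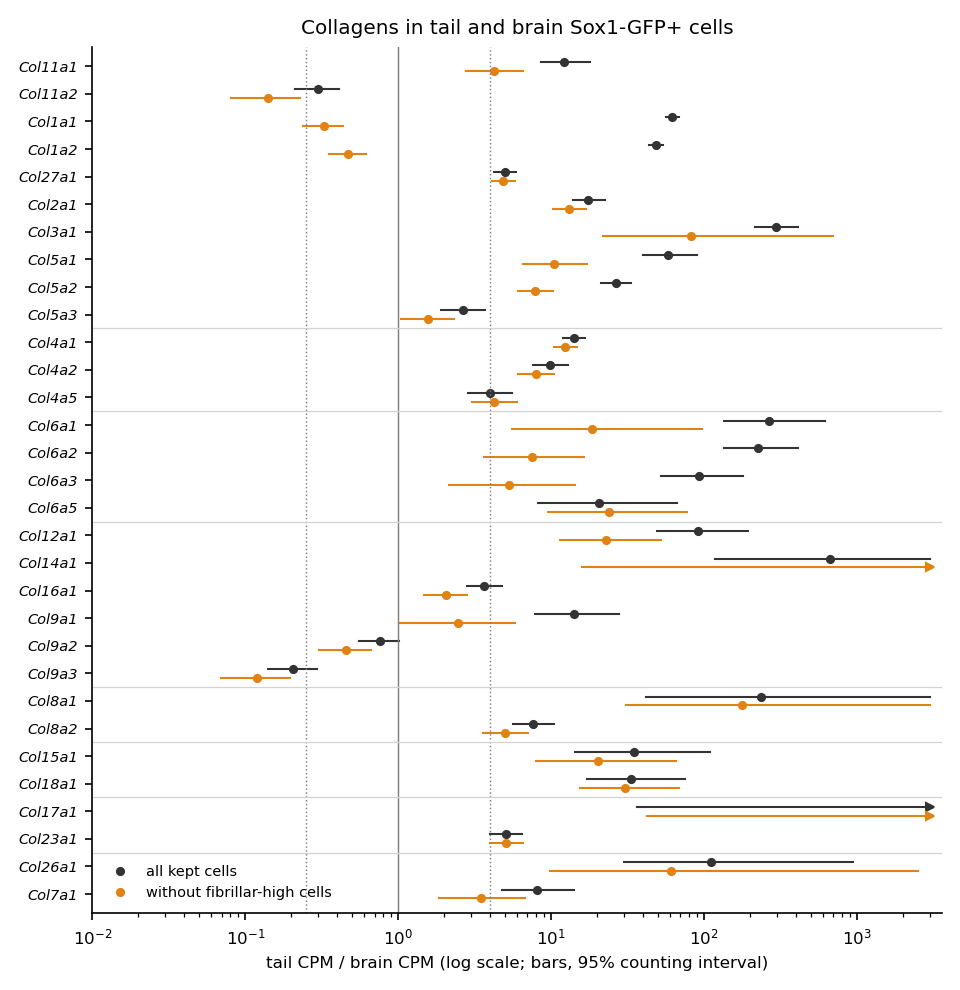
Ratio of tail to brain CPM (horizontal axis, log scale) for the 31 collagens with 50 or more molecules, over all kept cells and without fibrillar-high cells, with 95% counting intervals. The solid line marks equal levels and the dotted lines 4-fold, arrows mark genes with no brain molecule, and bars that reach the right edge run past it. For Col1a1, Col1a2, Col6a1, Col6a2 and Col6a3 the ratio is far lower without the fibrillar-high cells, whereas Col4a1 and Col27a1 hardly shift. Col1a1, Col1a2 and Col3a1 are the genes that chose those cells.

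The chains of type I collagen and Col3a1 chose the fibrillar-high cells, so their values outside those cells are set by that choice and are given as a description. Col1a1 had 12686 tail and 466 brain molecules, 4503 and 72.5 CPM, a ratio of 62.1 (56.6 to 68.2), and Col1a2 had 8788 and 414, a ratio of 48.4 (43.9 to 53.6). Of the tail molecules, 99.6% and 99.3% lay in fibrillar-high cells. Outside those cells Col1a1 had 51 tail and 416 brain molecules, a ratio of 0.325 (0.238 to 0.436), and Col1a2 had 63 and 358, a ratio of 0.467 (0.351 to 0.611). In the tail this leaves out nearly every molecule of both genes by construction, while in the brain it leaves out 2 cells. Col3a1, the type III chain that is laid down with type I in soft tissue, had 5017 tail and 39 brain molecules, a ratio of 293 (214 to 413), and outside the fibrillar-high cells 62 and 2, a ratio of 82.2 (21.8 to 694).

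The remaining fibrillar chains were less tied to the fibrillar-high cells. These still held 87.0% of the tail Col5a1, 76.4% of the Col5a2 and 70.2% of the Col11a1 molecules, against 35.8% of Col2a1 and 16.3% of Col27a1. Col2a1, the type II chain of cartilage, had 600 tail and 78 brain molecules, a ratio of 17.5 (13.8 to 22.5), and 13.1 (10.2 to 16.9) outside those cells. The type V chains, which set fibril width, differed among themselves. Col5a1 had 693 and 27 molecules (ratio 58.5, 39.9 to 89.5) and Col5a2 997 and 86 (26.4, 21.2 to 33.4), and both stayed over 4-fold higher without the fibrillar-high cells, at 10.4 (6.51 to 17.2) and 7.89 (6.09 to 10.3). Col5a3, with 83 and 71 molecules, reached 2.67 (1.92 to 3.71) and was not called. Col27a1, a fibrillar chain of cartilage and of other developing tissue, had 441 and 202 molecules, and its ratio was 4.98 (4.21 to 5.91) with and 4.87 (4.09 to 5.81) without those cells. The type XI chains, partners of type II, stood on opposite sides. Col11a1 had 198 and 37 molecules, a ratio of 12.2 (8.56 to 17.8). Outside the fibrillar-high cells its ratio was 4.23 (2.76 to 6.56), and it was not called there. Col11a2 had 42 tail and 321 brain molecules, so that the brain was 3.35-fold higher (2.42 to 4.74), and 7.12-fold higher (4.38 to 12.4) outside the fibrillar-high cells. A 4-fold call for the brain was reached only in the latter set.

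Among type IV chains, Col4a1 and Col4a2, which pair in nearly every basement membrane and whose genes start 21 bases apart on opposite strands of chromosome 8, were both called with and without the fibrillar-high cells. Col4a1 had 1061 tail and 171 brain molecules, a ratio of 14.2 (12.0 to 16.7), with 25.7% of the tail molecules in fibrillar-high cells. Its ratio outside them was 12.4 (10.5 to 14.7). Col4a2 had 321 and 74 molecules, a ratio of 9.89 (7.66 to 12.9), and 7.96 (6.08 to 10.5) outside. Col4a5, the X-linked chain of kidney and other membranes, had 101 and 58, a ratio of 3.97 (2.85 to 5.58), and was not called. The exons of Col4a1 and Col4a2 share bases in the annotation, so reads there may be divided between them in a way the files do not show.

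Beaded filament chains followed the fibrillar-high cells. The 3 main chains of type VI collagen, the microfibrils around connective tissue cells, had 938 tail and 8 brain molecules for Col6a1 (ratio 267, 135 to 621), 1386 and 14 for Col6a2 (226, 134 to 414), and 485 and 12 for Col6a3 (92.2, 52.3 to 180). In the tail 96.7 to 97.8% of them lay in fibrillar-high cells, and the class ratio went from 157 to 10.6 (7.01 to 16.5) without those cells. Col6a5, a later-found type VI chain, differed. Its 45 tail molecules all lay outside fibrillar-high cells, against 5 in the brain. The ratio was 20.5 (8.17 to 66.3) over all kept cells and 23.9 (9.51 to 77.1) outside fibrillar-high cells.

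Fibril-associated collagens, which sit on the surface of fibrils, divided between the libraries. Col12a1 had 402 and 10 molecules (ratio 91.7, 49.3 to 193), and Col14a1, its relative in dermis and tendon, 291 and 1 (664, 118 to 26301). Col12a1 kept its call without the fibrillar-high cells at 23.0 (11.5 to 52.1), and Col14a1 was then left with 24 tail molecules against 0, at least 21.2-fold more. Col16a1 had 146 and 91 molecules (3.66, 2.80 to 4.81) and was not called. The chains of type IX collagen, which coats type II fibrils, parted. Col9a1 had 81 and 13 molecules (14.2, 7.86 to 27.8) and was called in the tail, with 85.2% of its tail molecules in fibrillar-high cells. Col9a2 had 62 and 187, a ratio of 0.756 (0.558 to 1.01). Col9a3 had 34 tail and 376 brain molecules and was 4.85-fold higher in the brain (3.41 to 7.11), or 8.34-fold (5.14 to 14.5) outside the fibrillar-high cells, where it was called. The class as a whole stood at 3.47 (3.15 to 3.82) with and 1.05 (0.912 to 1.21) without fibrillar-high cells.

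Network, multiplexin, membrane-spanning and anchoring collagens were smaller classes. Col8a1 and Col8a2 form the short-chain network of endothelial and corneal membranes. Col8a1 had 104 tail molecules and 1 in the brain (ratio 237, 41.6 to 9457), and Col8a2 had 186 and 56 (7.57, 5.59 to 10.4). Col15a1 and Col18a1, whose ends are released as antiangiogenic fragments, had 76 and 5 (34.7, 14.2 to 110) and 132 and 9 molecules (33.4, 17.1 to 74.8). Among membrane-spanning chains, Col17a1, which fixes basal keratinocytes to their basement membrane, had 61 tail and 0 brain molecules, which is at least 46.4-fold more against a limit of 3 counts. Col23a1 had 225 and 101 and a ratio of 5.08, and its lower bound did not clear the 4-fold rule. Col7a1, the anchoring fibril of skin, had 67 and 19 (8.04, 4.77 to 14.2). Col26a1 had 98 and 2 (112, 30.1 to 936). The 12 collagens under 50 molecules were Col10a1, Col13a1, Col19a1, Col20a1, Col22a1, Col24a1, Col25a1, Col28a1, Col4a4, Col4a6, Col6a4 and Col6a6, with 0 to 37 molecules in the tail and 0 to 17 in the brain, the highest being Col22a1 with 37 and 3 and Col6a6 with 32 and 3.

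Within the tail, 28 collagens had enough molecules to set fibrillar-high cells against the rest, and 15 were over 4-fold higher there, against 2.39% of 8236 genes. They include the 3 genes that define the cells, for which the count is no result. The other 12 were Col5a1, Col5a2, Col11a1, Col6a1, Col6a2, Col6a3, Col9a1, Col12a1, Col14a1, Col16a1, Col7a1 and Col26a1. The limit for this comparison was 50 molecules in fibrillar-high and other tail cells together. Col6a1, Col6a2, Col6a3, Col7a1, Col9a1, Col14a1 and Col26a1 met it only with their fibrillar-high molecules, having 12 to 31 in the other tail cells. Col5a1, Col5a2, Col11a1, Col12a1 and Col16a1 had 59 to 235 in those other cells. Col6a2 stood at 3422 CPM, against 12.8 CPM in the other tail cells, and was seen in 164 of the 172 cells. Col14a1 stood at 674 against 9.91 CPM and was seen in 75 cells. No type IV chain was among the 15 collagens, and Col4a1 and Col4a2 lay at 273 and 102 molecules in the fibrillar-high cells. Collagen made up 1.18 to 29.0% of a fibrillar-high cell's molecules, with a median of 5.81%, and a cell held molecules of 4 to 19 collagen genes, median 12. Col1a1 ranged from 0 to 400 molecules a cell with a median of 42, Col1a2 from 0 to 372 with a median of 29, and Col3a1 from 0 to 177 with a median of 15.

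The fibrillar-high cells were not alike. In a subset chosen after the values were seen, the 20 of them with a Col2a1 molecule held 59.0% of the Col11a1, 96.0% of the Col11a2, 71.0% of the Col9a1 and 82.4% of the Col9a3 molecules of all 172, and all 7 of Col25a1. They also held 11 of 14 molecules of Acan, the cartilage proteoglycan, all 11 of Chad, a matrix protein of cartilage, and 92.3% of Tnmd, a tendon gene. Col3a1 was lower in them, at 5009 CPM against 13394 CPM in the other 152, and so was Lum, a dermal proteoglycan, at 120 against 660 CPM. Col1a1 was at 49992 against 29793 CPM.

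The other cells were divided by marker. A cell took the first of Krt5 (basal keratinocytes), Tmem212 (multiciliated ependymal cells), Stmn2 (neurons and neuroblasts), Slc1a3 (astroglia) and Igfbp5 of which it held 2 or more molecules, and was otherwise unmarked. In the tail these kinds had 81, 37, 66, 387 and 778 cells, with 443 unmarked. In the brain they had 53 Tmem212, 559 Stmn2, 4858 Slc1a3, 178 Igfbp5 and 2338 unmarked cells, and no brain cell met the Krt5 rule. A marker is not a cell type. In the tail, 379 of the 387 Slc1a3 cells also carried 2 or more Igfbp5 molecules, against 167 of 4858 in the brain, and astroglial genes summed to 2956 CPM in tail and 34043 CPM in brain Slc1a3 cells. In tail and brain Tmem212 cells ependymal genes summed to 6680 and 6787 CPM and astroglial genes to 1003 and 2635 CPM. Of the 37 tail cells, 27 also had another of the markers. The keratinocyte, ependymal, neuron and astroglial lists each include the marker of a kind, here and below. Their sums in that kind are thus set in part by the choice of cells.

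Summed collagen was low and uneven among these kinds. In the tail it was 1824 CPM in Slc1a3, 1722 in Tmem212, 1717 in Igfbp5, 1072 in Krt5, 1017 in unmarked and 303 in Stmn2 cells. The 3 highest had intervals that overlap (1711 to 1942, 1422 to 2067 and 1633 to 1804), and so did Krt5 and unmarked cells. In the brain it was 1158 CPM in Tmem212, 529 in Slc1a3, 317 in unmarked, 176 in Igfbp5 and 114 in Stmn2 cells. The lowest 2 had intervals of 123 to 244 and 85.1 to 149, which overlap. Cells marked by the neuronal gene had the lowest level in both libraries, in the brain not apart from Igfbp5 cells.

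**Figure D3:**
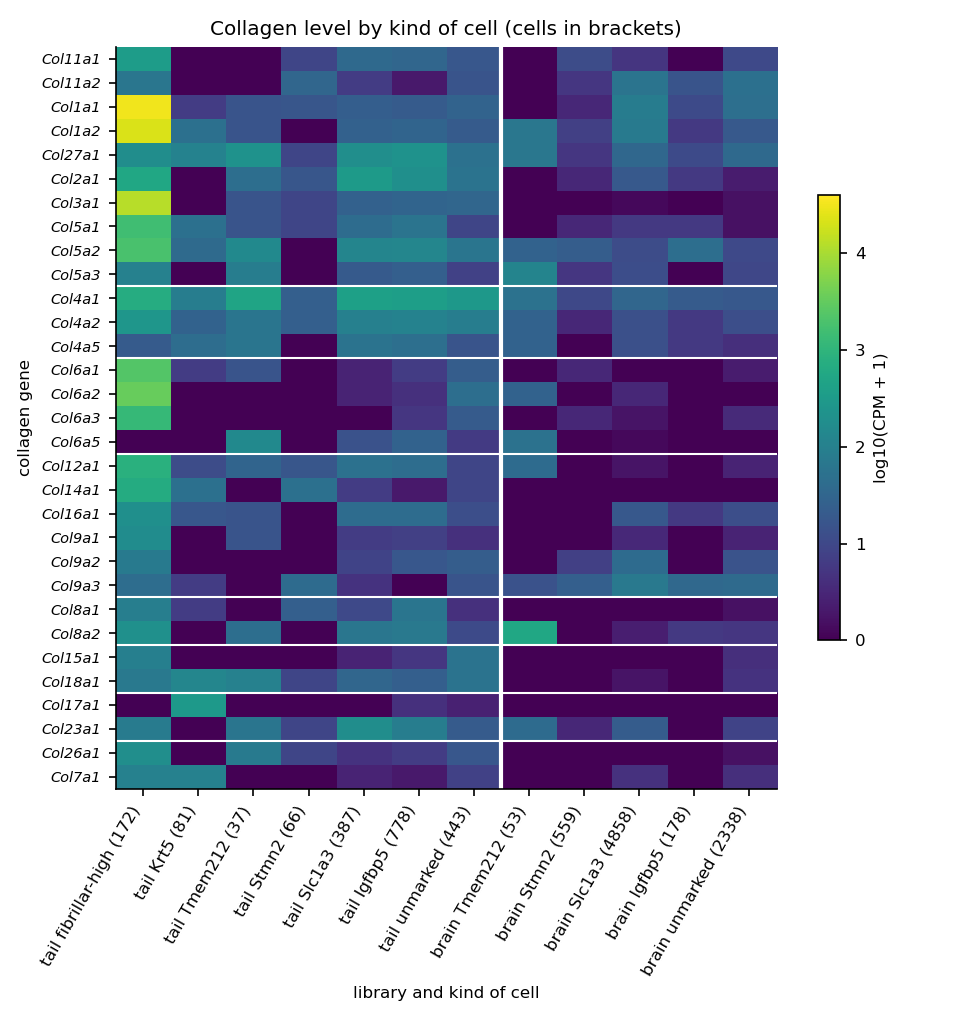
Level of 31 collagens (rows) in the kinds of cell with 20 or more cells of each library (columns), shaded by the log10 of CPM plus 1. Brighter shades mark higher levels. The fibrillar-high column is brightest for Col1a1, Col1a2 and Col3a1. Outside that column, Col17a1 and Col7a1 stand out in tail Krt5 cells, and Col8a2 in brain Tmem212 cells.

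The make-up differed as well. Fibrillar chains made 86.8% of collagen molecules in tail fibrillar-high cells, 44.0% in tail Slc1a3, 43.0% in tail Igfbp5, 57.1% in brain Slc1a3 and 23.5% in tail Krt5 cells. Basement membrane chains made 1.18% in fibrillar-high cells but 34.8% in tail Tmem212, 31.7% in tail Igfbp5 and 31.4% in tail Slc1a3 cells, against 11.1% in brain Slc1a3 cells. As a level, these chains were highest among tail kinds in the fibrillar-high cells, at 970 CPM against 599 CPM in tail Tmem212 cells. Fibril-associated chains made 25.5% in brain Slc1a3 cells and 7.73% in tail Slc1a3 cells. Network chains made 48.3% in brain Tmem212 cells and 2.61% in tail Tmem212 cells.

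**Figure D4:**
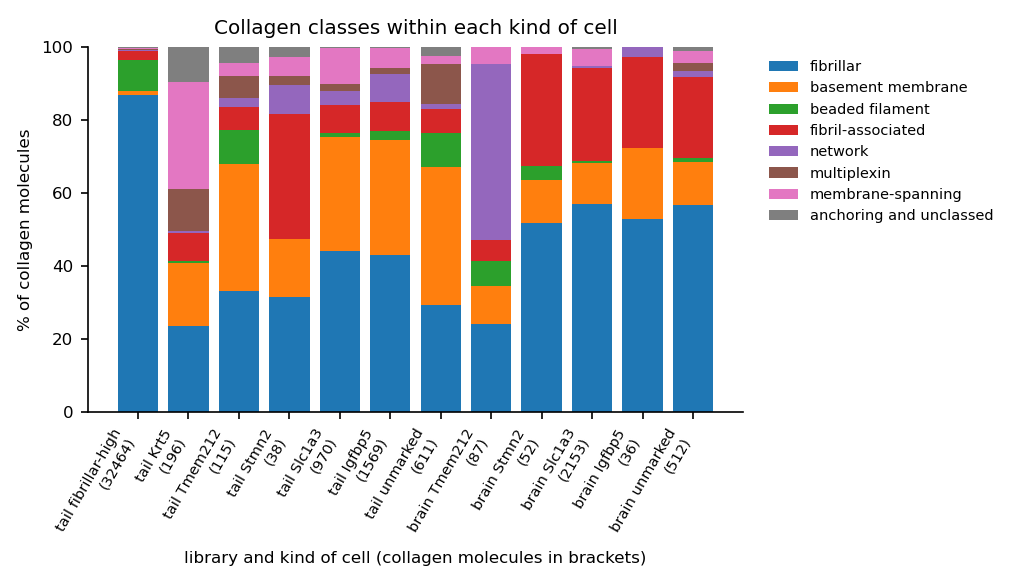
Share of collagen molecules (vertical axis, percent) by class of collagen, stacked, for each kind of cell and library. Fibrillar chains fill 86.8% of the tail fibrillar-high bar, and network chains 48.3% of the brain Tmem212 bar.

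A collagen was called in a kind when 20 or more molecules were counted in the library outside fibrillar-high cells and the interval of its ratio to the other such cells lay wholly above 2-fold. Col17a1, Col7a1 and Col14a1 in tail Krt5 cells met this minimum only with that kind's own molecules. So did Col26a1 in tail Tmem212 and Col8a1 in tail Igfbp5 cells. In the brain, so did Col8a2 in Tmem212 and Col2a1 in Slc1a3 cells. Those calls are a description. In tail Krt5 cells 4 of 28 collagens were called, against 3.67% of 10583 genes. Col17a1 had 57 molecules there, 312 CPM against 1.79 CPM elsewhere, a 174-fold difference (64.5 to 662). It was seen in 38 of 81 cells, and in 9.88% of cells after thinning each to 400 molecules, against 0 of 385 thinned tail Slc1a3 cells. Col7a1, which anchors the same epithelial junction in the dermis, had 19 molecules, each in a different cell (38.8-fold, 14.9 to 119). Col18a1 had 23 (3.48-fold, 2.09 to 5.58) and Col14a1 had 9 (7.35-fold, 2.83 to 17.9). The Col7a1 and Col18a1 calls were lost when cells with several markers were left out. Keratinocyte genes summed to 17585 CPM in these cells and fibroblast genes to 1362 CPM with 6 of the 8 at 0. The part of fibroblast RNA in the Col14a1 value was not tested. A Sox1 molecule was seen in 0 of the 81 cells. At 3 counts this allows a share of up to 3.70% of cells with a molecule, and it does not limit the share of cells that express the gene.

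Among tail cells with glial and ependymal markers few collagens were called, and the kinds overlap, since 379 of 387 Slc1a3 and 26 of 37 Tmem212 cells also carried Igfbp5. In tail Slc1a3 cells 2 of 28 were called, against 0.529% of genes, namely Col2a1 with 167 molecules (2.72-fold, 2.21 to 3.34) in 25.8% of the cells and Col23a1 with 95 (3.44-fold, 2.57 to 4.61). With cells of several markers left out, both were called in Igfbp5 cells. Slc1a3 cells then fell under the 20 cells needed and could not be called. Col2a1 was seen in 14.3% of Slc1a3 cells after thinning and in 8.44% of Igfbp5 cells, but in 0 of 81 Krt5 cells. In Igfbp5 cells 1 was called, against 0.255% of genes. It was Col8a1, whose 56 molecules lay in 11 of the 778 cells, up to 17 in a cell, so a few cells set its level. Tmem212 cells had 3, against 2.51% of genes, namely Col6a5 with 10 molecules, Col5a3 with 6 and Col26a1 with 5. All 3 calls were lost when the marker had to reach 3 molecules. With cells of several markers left out, tail Tmem212 cells fell under the 20 cells needed and could not be called. In Stmn2 cells the count was 0, against 3.69% of genes. Schwann genes summed to 4309 CPM in these cells with 5 of the 8 at 0. Neuroblast or neuron genes summed to 7469 CPM there with all 8 present. The Schwann list includes Gap43, which is not particular to Schwann cells, and which of its genes made the sum was not examined.

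Col4a1 was the most widely shared chain of the tail. Outside fibrillar-high cells it stood at 479 CPM in Tmem212, 412 in Slc1a3, 382 in Igfbp5, 281 in unmarked, 87.5 in Krt5 and 23.9 in Stmn2 cells. Fibrillar-high cells held 273 of its molecules, and their level of basement membrane chains was above that of each of these kinds. After thinning Col4a1 was seen in 27.0% of Tmem212, 17.4% of Slc1a3, 11.4% of Igfbp5 and 5.07% of unmarked cells, and in 0 of 66 Stmn2 cells. Its count relative to Col4a2 was 8.0 (2.84 to 31.1) in Tmem212 cells, 4.06 (3.0 to 5.57) in Slc1a3 cells, 3.49 (2.79 to 4.40) in Igfbp5 cells and 2.68 (2.12 to 3.39) in fibrillar-high cells, and these intervals all overlap. Among unmarked cells some of it came from few cells, the highest holding 36 molecules. In a subset chosen after the values were seen, 9 cells with 2 or more molecules of Pecam1, an endothelial gene, held 107 of the 788 Col4a1 and 40 of the 219 Col4a2 molecules found outside fibrillar-high cells, and 30 of 38 Col15a1 and 15 of 104 Col18a1 molecules.

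In the brain 17 collagens had enough molecules. Brain Tmem212 cells had 2 called, against 5.64% of genes. Col8a2 had 42 molecules in 29 of 53 cells, 559 CPM against 2.21 CPM elsewhere, a 253-fold difference (136 to 502). After thinning it was seen in 17.0% of these cells and in 0.0657% of brain Slc1a3 cells. Col5a3 had 9 molecules in 5 cells (12.3-fold, 5.36 to 24.8). Stmn2 and Igfbp5 cells had 0 each, against 8.13% and 5.05% of genes, and brain Igfbp5 cells carried 3538 CPM of neuroblast genes.

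Brain Slc1a3 cells had 3 called, against 6.66% of genes. Col1a2 had 319 molecules (4.72-fold, 3.38 to 6.77), Col2a1 had 74 (10.7-fold, 4.0 to 40.3) and Col9a2 had 160 (3.55-fold, 2.34 to 5.61). With a marker minimum of 3 molecules, the Col9a2 call here and the Col5a3 call in Tmem212 cells were lost. Col1a1, with 337 molecules, reached 2.46-fold (1.92 to 3.19) and was not called. These molecules were spread thinly, with at most 4 of any of these genes in a cell. After thinning, Col1a1 was seen in 3.46% and Col1a2 in 3.02% of brain Slc1a3 cells, against 0% and 0.187% of brain Stmn2 cells. Col3a1 did not go with them. Its count was 1, and for 337 Col1a1 molecules there were 319 of Col1a2. The fibrillar-high tail cells had 12635, 8725 and 4955 molecules of Col1a1, Col1a2 and Col3a1, and the 2 fibrillar-high brain cells 50, 56 and 37. Outside fibrillar-high cells Col1a1 molecules were 208 times as many as those of Col3a1 in the brain (57.2 to 1723) and 0.823 times in the tail (0.557 to 1.21). Both genes belong to the rule that chose the cells left out, so these ratios are a description.

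**Figure D5:**
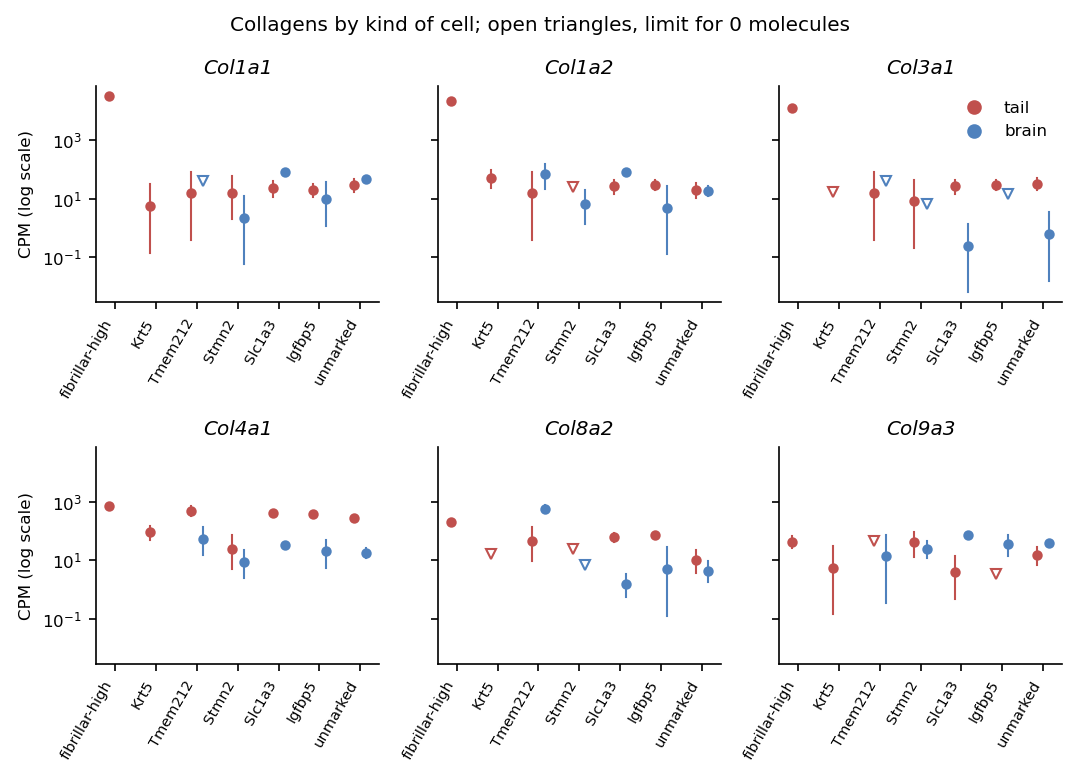
CPM (vertical axis, log scale) of Col1a1, Col1a2, Col3a1, Col4a1, Col8a2 and Col9a3 in each kind of cell, with 95% counting intervals and open triangles at the limit that a count of 0 allows. In brain Slc1a3 cells Col1a1 and Col1a2 stand at 82.8 and 78.4 CPM with a single Col3a1 molecule among 4858 cells.

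Most brain Col2a1 lay in few cells. In a subset chosen after the values were seen, the 285 brain cells with 2 or more molecules of Gdf10, a gene of Bergmann glia, held 56 of 78 Col2a1 molecules (71.8%), 30.1% of Col9a2, 29.3% of Col9a3 and 36.6% of Col23a1, so that most molecules of the last 3 lay elsewhere. They held 4 of 201 Col27a1 molecules, 17.9% of Col1a2 and 2.88% of Col1a1. Col1a2 was 3.60-fold higher in them than in the other 7701 cells (2.70 to 4.73), and Col1a1 was at 0.491 of the level there (0.252 to 0.868). In these counts the 2 chains of type I collagen differed between the subset and the other brain cells, which was not tested.

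The libraries were also compared within a kind. In Slc1a3 cells 19 collagens had 20 or more molecules, and 11 were over 4-fold higher in the tail, against 6.49% of 10869 genes, and 1 in the brain, against 3.74% of genes. The tail calls included Col8a2 (42.1-fold, 17.4 to 123), Col2a1 (17.3-fold, 13.1 to 23.0) and Col4a1 (13.0-fold, 10.4 to 16.3). The brain call was Col9a3, with 2 tail and 295 brain molecules (19.3-fold, 5.29 to 160). Col8a2, Col11a1, Col12a1 and Col18a1, all called in the tail, met the minimum only with their tail molecules, and Col9a3 only with those of the brain. Col11a2, with 3 and 238, was 10.4-fold higher in the brain (3.5 to 50.6), and its lower bound stayed under 4. Col1a1 and Col1a2 were also higher in the brain, with tail-over-brain ratios of 0.273 (0.139 to 0.482) and 0.336 (0.182 to 0.572). Both genes chose the fibrillar-high cells left out here, so their ratios are set by that choice and given as a description. Besides the astroglial genes given above, ependymal genes differed between these cells, at 1207 against 18.9 CPM, and the part of cell make-up in these ratios was not tested.

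In Tmem212 cells the type IV and type VIII chains went opposite ways. Col4a1 had 32 tail and 4 brain molecules, 9.0-fold higher in the tail (3.19 to 35.0), and Col27a1 had 15 and 5 (3.38-fold, 1.17 to 11.9). Col8a2 had 3 tail and 42 brain molecules, a tail-over-brain ratio of 0.0804 (0.0159 to 0.252). In Igfbp5 cells, by contrast, Col8a2 had 64 tail and 1 brain molecule, a ratio of 14.3 (2.48 to 574). The Igfbp5 cells of the libraries differed in other genes, with ependymal lists at 1143 and 58.7 CPM and neuroblast or neuron lists at 329 and 3538 CPM in tail and brain, and the part of this in the ratio was not tested. Within the tail, Col8a2 stood at 44.9 CPM in Tmem212 cells (9.27 to 131), 62.0 in Slc1a3 cells and 70.1 in Igfbp5 cells, so that the Tmem212 cells were not apart from the others.

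Genes that fold, process, bind and break down collagen are read against the same shares of all genes, 6.35% in the tail and 4.66% in the brain, or 5.71% and 4.58% without fibrillar-high cells. Of 16 enzymes and chaperones of chain modification and folding, 15 were tested and 1 was called in the tail. It was Crtap, part of the prolyl 3-hydroxylase complex, at 5.43-fold (4.32 to 6.86). The median log2 ratio of the list was 0.65, and −0.035 without the fibrillar-high cells, where no gene was called. Of 11 processing and crosslinking genes, 7 were tested and 3 were called in the tail, namely the crosslinking oxidases Lox (131-fold, 55.6 to 408) and Loxl2 (52.5-fold, 24.9 to 133) and the procollagen enhancer Pcolce (30.3-fold, 16.4 to 62.0). Without the fibrillar-high cells 4 were tested and 0 called. Of 8 collagen receptors 3 were tested and 0 called.

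Of 9 breakdown genes 5 were tested. The gelatinase Mmp2 was called in the tail (16.7-fold, 11.9 to 24.2). The protease inhibitors Timp3 and Timp4 were called in the brain, at 5.98-fold (5.49 to 6.52) and 26.3-fold (19.8 to 35.6), and these 3 calls held without fibrillar-high cells. Of 14 basement membrane partners 9 were tested and 3 called in the tail, the laminin chains Lamb1 (37.5-fold, 17.6 to 95.3) and Lamc1 (4.88-fold, 4.10 to 5.82) and the proteoglycan Hspg2 (23.2-fold, 12.5 to 47.8). Hspg2 alone of 7 tested was called without the fibrillar-high cells (15.2-fold, 7.94 to 32.0), while Lamc1 stood at 4.42 (3.69 to 5.32).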

How the data were processed

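RNA of single sorted cells was captured with the BD Rhapsody system, 1 library per group. The deposited counts are whole molecules per gene and barcode. Per the file headers, the authors used version 1.10.1 of the BD Rhapsody WTA Analysis Pipeline on GRCm38 with GENCODE vM19, while a later version stands in the study's methods. The submitters' processing notes list STAR 2.7.1a, UMI-tools 1.0.1, Subread and featureCounts 1.6.4, with no role given. Each file also holds molecule counts before error correction and read counts. The error-corrected counts were used, and the others served as an alternative and for reads per molecule.

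Cells with over 200 and under 4000 genes and under 40% mitochondrial molecules were kept, which left 1964 of 2469 tail and 7988 of 12111 brain barcodes. Doublets called by Scrublet at an expected rate of 0.05 (scanpy 1.11.5), 5 in the tail and 76 in the brain, were kept. Molecules were summed over the cells of each group and given as CPM. Ratios have conditional exact binomial, sums exact Poisson and shares exact Clopper-Pearson 95% intervals (scipy 1.17.1, numpy 2.4.6), all for counting error only, and a count of 0 was taken to allow 3 counts. Thinning to 400 molecules left out 19 tail and 718 brain cells. The calling rule was tested on simulated counts. Its minimum counts the molecules of both sides together, so many called genes met it only through the side where they were high.

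The collagens, markers and lists were chosen with earlier results of these data known. Every collagen with 50 or more molecules is named. In marked cells those called are named, and of each other list up to 4 called genes. The Col2a1, Gdf10 and Pecam1 subsets were chosen after their values were seen. Alternatives were other filters, thresholds and scalings (edgeR 4.0.16, DESeq2 1.42.0 in R 4.3.3, for their factors only). Positions come from GENCODE vM21, counted from 1. In that annotation Col9a3, Col15a1, Col3a1, Col5a1 and Col7a1, among others, share exon bases with another gene.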

Additional observations from a re-analysis of the deposited data

Results flagged for a closer look

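Col8a2 differed between tail and brain in opposite directions in different kinds of cell. Tail over brain it was 42.1 in Slc1a3 cells (33 tail and 6 brain molecules), 14.3 in Igfbp5 cells (64 and 1) and 0.0804 in Tmem212 cells (3 and 42). Tail and brain Igfbp5 cells also differed in ependymal genes (1143 and 58.7 CPM) and neuroblast or neuron genes (329 and 3538 CPM). With 1 library per group the difference between these ratios was not tested.

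Collagen was also found in barcodes that failed the cell filter and enter no comparison. In the tail, 505 such barcodes held 307 collagen molecules of 155534, or 1974 CPM, against 12766 CPM in kept cells. In the brain, 4123 such barcodes held 379 of 1037815, or 365 CPM, against 469.3 CPM in kept cells.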

How the results depend on the processing

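None of the class ratios, counts, shares of fibrillar-high cells and single collagen ratios recomputed here reversed. The gene lists, the ratios between chains and the subsets chosen after their values were seen were not recomputed. Of the class ratios and counts, 73 values were alike under the alternatives and 27 moved, and of the single ratios 198 and 22. A ratio or share was taken as alike when it lay within the reported interval. A count was taken as alike by its size only, whatever its members, so that 16 tail calls in place of 24, with 200 molecules required, are among the 73. Scaling by TMM or median-ratio factors lowered the tail-over-brain ratios by a fixed log2 shift, by their construction, of −0.39 or −0.37 over all cells and −0.40 or −0.41 without fibrillar-high cells. Summed collagen became 20.8 and 21.1 under these, fibrillar 29.6 and 30.0, basement membrane 8.07 and 8.17 and other collagens 9.02 and 9.14. Without fibrillar-high cells fibrillar became 1.74 under both, basement membrane 6.97 and 6.93, and other 2.17 under both. The mean of each cell's CPM gave 17.2 summed, 23.0 fibrillar and 8.78 other. With under 20% mitochondrial molecules, summed and fibrillar ratios were 29.6 and 43.1, and brain calls without fibrillar-high cells fell to 1. A limit of 20 molecules for fibrillar-high cells gave 2.78 for fibrillar and 3.19 for other collagens outside them. Brain calls over all cells went from 0 to 1 under TMM and 1 under median-ratio factors, and to 2 (Col9a3 and Col11a2) by the mean of each cell's CPM, where the ratio alone was used. Requiring 200 molecules left 5 tail calls without fibrillar-high cells, as fewer genes were tested. A marker minimum of 1 gave 8 brain calls in marked cells in place of 5. In the tail, leaving out cells with several markers gave 9 calls for 10, of which 3 were shared, and a marker minimum of 3 gave 9, of which 7 were shared. Under the former, tail Slc1a3 and Tmem212 cells fell under the 20 cells needed, so their calls could not recur. The causes of the other changes were not tested. No paired analysis was possible because each group is 1 library, and for the same reason no library could be left out. At this depth, changes in the 12 collagens under 50 molecules were not assessed.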
